A study of Mus musculus with 4 samples.

Results

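The 92 genes described here encode cytosolic ribosomal proteins or are their relatives, annotated copies or similarly named genes, in thigh skeletal muscle of aging mice. They were chosen by mouse gene symbol: every unit whose symbol, or any joined part of it, starts with Rpl or Rps and a digit, or is Rplp0, Rplp1, Rplp2 or Rpsa, without the Rps6k kinases and symbols marked as pseudogenes. Of 40137 gene units in the series, 92 met this rule, 74 of them single genes and 18 joined by the authors' annotation to a neighbour or to a small RNA inside the gene. Of the 92, 90 had enough counts to be tested, a mean of at least 10 over the libraries. Rpl10l had 0 counts in each library, which allows up to 3, and Rps12l1 had 4, 0 and 1 counts at 28 months, against 3 at 18 months. The libraries came from male mice of the inbred strain C57BL/6J, wild-type and with no treatment, aged 28 months (3 libraries) or 18 months (1 library). The sequencing served to check a splicing analysis made on exon arrays of the same samples, and both ages are late in life, so that no young adult is part of the comparison. The labels do not say that the 3 libraries at 28 months came from separate animals, so p-values measure only the spread between these samples, and the single 18-month library was assumed to vary like them. With 3 against 1 there are 4 possible splits, and an exact permutation test could not go below p = 0.25.

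A ribosome joins a small subunit, which reads the mRNA, to a large subunit, which forms the peptide bond. Each subunit is built from ribosomal RNA and a set of proteins named Rps (small) and Rpl (large), usually made in equal numbers, and an acidic stalk of Rplp0, Rplp1 and Rplp2 on the large subunit recruits the elongation factors. Their mRNAs begin with a pyrimidine tract (TOP mRNAs), which ties their translation to the growth kinase mTORC1. Several have a second version made in some tissues only, such as Rpl3l, which stands in for Rpl3 in striated muscle. The same mRNAs have been copied back into the genome many times, leaving copies, mostly without introns, that resemble them closely and can take their reads.

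Library totals ran from 65780464 to 76163175 counts. Fast fibre markers (6 genes, among them Acta1 and Ckm) summed to 87146 to 158302 CPM (counts scaled to a common library size by TMM) at 28 months and to 89188 CPM at 18 months. Keratinocyte markers (5 genes) summed to 1.01 to 1.12 CPM at 28 months, against 0.891 CPM at 18 months, with Krt5 at 0 counts in each library. These libraries therefore held muscle transcripts, although the extraction text in the labels describes skin. Among the 72 tested single-gene members, 28-month replicate 2 was the lowest 28-month library for 64, and the lowest of all 4 for 53. The exact intervals below cover counting error only.

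Many ribosomal protein genes had fewer counts of their own than their annotated pseudogenes and retrogenes had. These copies were matched to members by sequence alone, with or without introns, giving 1285 copies of 80 member genes, with up to 83 copies of a single gene. The copies held 38.8, 40.6 and 38.3% of all counts of members and copies in 28-month replicates 1, 2 and 3, and 48.4% at 18 months. In 42 members the copies took over 50% of the counts in each library, in 13 over 90%, and in 21 under 10%. Where the closest copy was at least 99% identical (51 genes), the copies held a median of 80.6% at 28 months, and the gene itself stood at a median of 20.6 CPM per kb. Where the closest copy was under 97% identical (15 genes), they held 0.258% and the gene stood at 296 CPM per kb. Whether a count at a copy came from the copy or from the gene cannot be told apart in these tables.

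Rps27 and Rps9 lie far apart in this range. Rps27, a small-subunit protein with a zinc finger (chr3:90212522-90213651, minus strand, GRCm38), had 32, 31 and 116 counts at 28 months, against 17 at 18 months. Its retrogene Rps27rt (chr9:114982366-114982739, minus strand) had 10904, 7759 and 8424 counts at 28 months, against 7424 at 18 months. It was far above Rps27 in each library, and in CPM its 18-month value lay inside the 28-month range while that of Rps27 lay below it. Over the first 120 coding bases, which cross 2 exon junctions of Rps27, the retrogene is the same base for base. The paralogue Rps27l (chr9:66946086-66949516, plus strand) differs at 28 of these bases, shown in capitals, and its copies held at most 0.604% of its counts in any library.
Rps27: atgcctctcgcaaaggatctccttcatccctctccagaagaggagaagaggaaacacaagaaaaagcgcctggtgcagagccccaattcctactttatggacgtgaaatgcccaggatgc
Rps27rt: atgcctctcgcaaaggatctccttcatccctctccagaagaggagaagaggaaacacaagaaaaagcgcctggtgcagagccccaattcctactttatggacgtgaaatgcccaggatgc
Rps27l: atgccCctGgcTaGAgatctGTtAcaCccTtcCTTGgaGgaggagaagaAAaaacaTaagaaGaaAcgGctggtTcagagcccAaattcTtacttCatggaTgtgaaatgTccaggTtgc

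Rps9, which lies at the mRNA entry site, stood at 646, 263 and 631 CPM at 28 months, against 367 CPM at 18 months, inside the 28-month range. Its copies were at most 85.6% identical to it and had 0 counts in each library.

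Rpl37, a zinc-finger protein of the large subunit, was like Rps27. It stood at 4.25, 2.12 and 3.25 CPM at 28 months, against 3.70 CPM at 18 months. Its copy Rpl37rt, annotated with 2 exons, identical over the first 120 coding bases and 99.7% identical over the full match, stood at 150, 68.5 and 128 CPM and at 110 CPM.

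Levels of the 77 canonical genes spread less once the copies were added. A ribosome holds each of these proteins once, apart from the stalk proteins P1 and P2, so their mRNA levels are usually compared with each other. Per kb of transcript, the standard deviation of log2 level across the 77 genes was 2.63, 2.33 and 2.51 at 28 months, against 2.38 at 18 months for the genes alone. With copies it was 1.66, 1.58, 1.67 and 1.61 in the same order. Adding a given count raises a gene with few counts of its own most on a log scale, whatever its source. The narrower spread therefore does not show where the reads of the copies came from. With the copies the median level went from 40.8 to 190 CPM per kb in 28-month replicate 1 and from 28.1 to 167 CPM per kb in the 18-month library, by construction, since counts were only added. Counted alone, means over the 4 libraries were among the highest for Rps14 (682 CPM per kb), Rps9 (635) and Rpl4 (612). The lowest were Rps13 (0.289 CPM per kb), Rps29 (0.959), Rps16 (1.63), Rpl28 (1.68) and Rps27 (2.16). With copies, these 5 stood at 52.6, 168, 75.2, 60.7 and 362 CPM per kb. A read that spans several bins may be counted in each, which would raise genes of many short exons, and this was not tested.

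**Figure D1:**
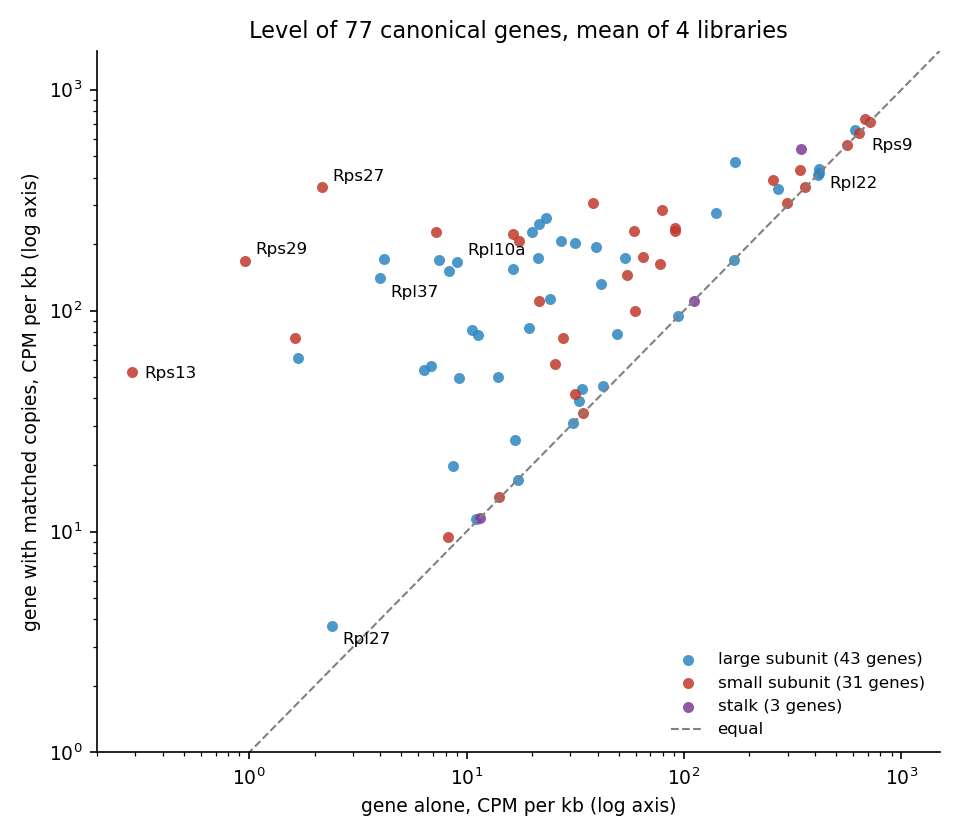
Level of 77 canonical ribosomal protein genes as the mean of 4 libraries, in CPM per kb of transcript, counted alone (horizontal log axis) and with matched copies (vertical log axis), coloured by subunit. Genes on the dashed line, such as Rps9 at 635 CPM per kb, gained nothing, and Rps27 moved from 2.16 to 362 CPM per kb.

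No ribosomal protein gene passed the test for a difference in amount between 28 and 18 months. This comparison asked which members had more or less mRNA in the older muscle. By edgeR's quasi-likelihood test, 0 of the 90 tested members had a Benjamini-Hochberg adjusted p under 0.05, beside 0 of 15376 units overall (0%). At an unadjusted p under 0.05 there were 4 members (Rpl22l1, Rpl10a, Rps27l and Rps10), where 4.9% of all units were at that level. The DESeq2 Wald test called 2 members, Rpl22l1 (higher at 28 months, adjusted p = 0.000417) and Rpl10a (lower, adjusted p = 0.0158), beside 0.202% of all units. In whole-tissue RNA, fewer cells of a type and less RNA per cell cannot be told apart.

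In estimate, 49 of the 72 single-gene members were higher and 23 lower at 28 months (median log2 difference 0.18), beside a median of 0.06 and 54.4% higher over all units. This estimate rested on single libraries: without replicate 1, 38 were higher with a median of 0.03, without replicate 2, 57 with a median of 0.41, and without replicate 3, 45 with a median of 0.10. The 18-month value was under every 28-month value in 14 members (25.4% of all units did so) and above them in 11 (26.4%), where 51.8% of all units lay outside the 28-month range on either side. Without 28-month replicate 2, 24 of 71 single-gene members passed, 23 higher and 1 lower, together with 5 joined members, beside 11.9% of all units (7.52% higher and 4.37% lower). That fit took its spread from the remaining pair of libraries alone. Without replicate 1, 0 members passed (0% of all units), and without replicate 3 likewise 0 (0.00648%). In counts simulated with the same spread for all genes, 0% of gene changes of log2 1 and 20% of log2 2 were found. Spread in the data differed between genes, so these shares are only a rough guide for the named genes. Differences of the sizes below could go undetected here.

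**Figure D2:**
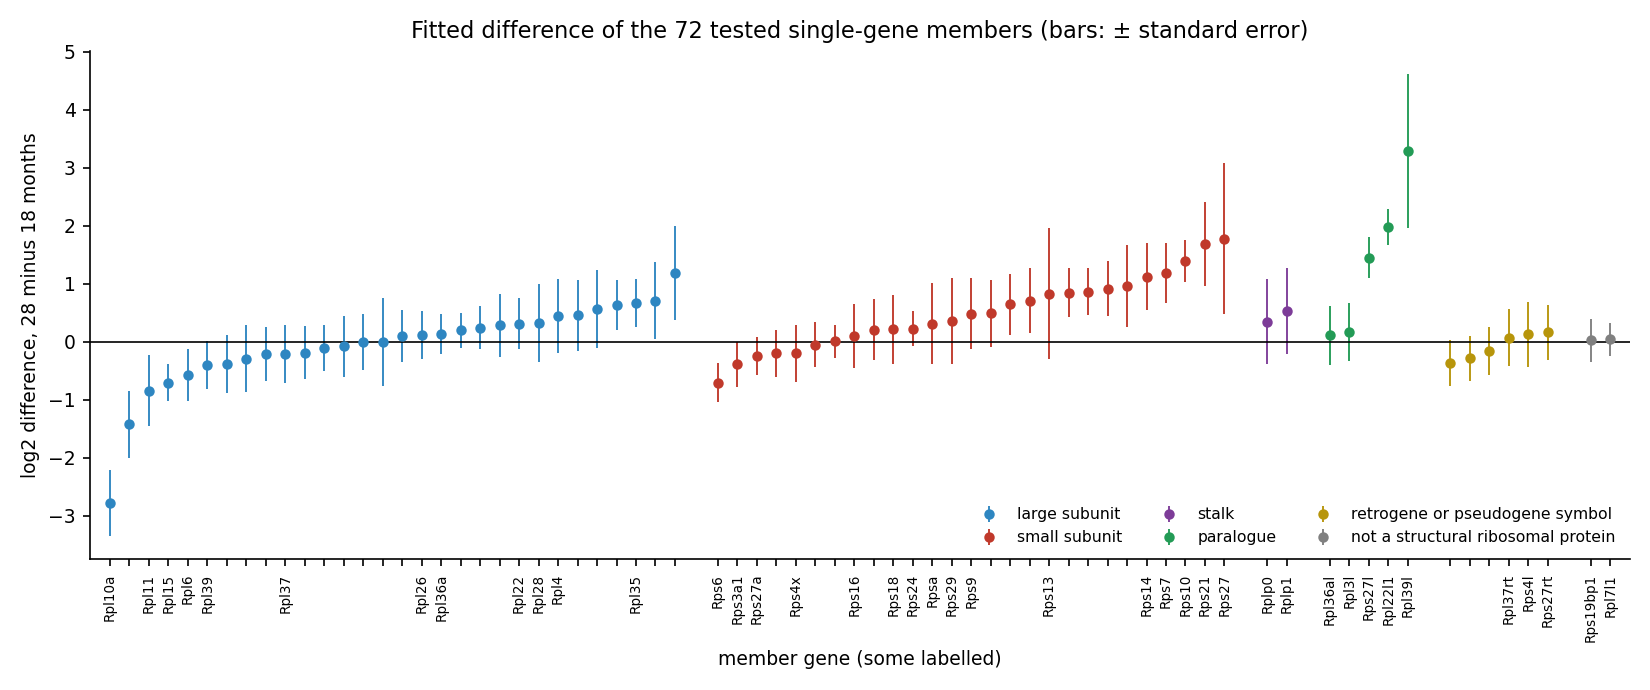
Fitted log2 difference (28 minus 18 months) of the 72 tested single-gene members with its standard error, grouped by kind and sorted within each, with some genes labelled. Single-gene small-subunit members have a median of 0.49 and large-subunit ones of 0.05, and none passed the edgeR test.

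Single-gene small-subunit units were mostly higher at 28 months in estimate. Of 27 single-gene small-subunit members 21 were higher at 28 months (median log2 difference 0.49), where 54.4% of all units were higher. The 18-month value was under every 28-month value in 9 and above them in 3, where the shares over all units were 25.4% and 26.4%. Rps21, a small protein of this subunit, stood at 196, 62.9 and 164 CPM at 28 months, against 43.7 CPM at 18 months. All 3 libraries at 28 months were above the 18-month library, and the fitted log2 difference was 1.69 ± 0.72 (SE; edgeR adjusted p = 0.859). Rps10, which sits on the head of the subunit, stood at 31.5, 20.4 and 28.1 CPM against 10.1 CPM, with no overlap and a log2 difference of 1.40 ± 0.36. Rps14, whose loss causes the anaemia of the human 5q deletion syndrome, stood at 615, 268 and 530 CPM against 217 CPM. Its log2 difference was 1.12 ± 0.58, and the 18-month value was again the lowest. On the 3′ side of its bins alone, the log2 difference of Rps14 was lower, at 0.77 ± 0.56. Those of Rps21 and Rps10 were not, at 1.79 ± 0.69 and 1.54 ± 0.51.

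Copies weighed differently on these genes. With copies added, Rps21, Rps10 and Rps14 had log2 differences of 1.58, 1.14 and 1.00. Rps7, which can bind the p53 ligase Mdm2, stood at 17.2, 9.33 and 20.2 CPM at 28 months, against 6.83 CPM at 18 months (log2 difference 1.19 ± 0.52). Its copies held 90.8 to 92.0% of the counts at 28 months and 96.3% at 18 months. With them added, Rps7 stood at 214, 108 and 219 CPM against 186 CPM, and the log2 difference was -0.045 ± 0.49.

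Among single-gene small-subunit members at 10 CPM or more, the lowest log2 differences were those of Rps6 and Rps3a1. Rps6, the substrate that gave the S6 kinases of the mTORC1 pathway their name, stood at 15.5, 9.87 and 14.4 CPM at 28 months, against 21.6 CPM at 18 months (log2 difference -0.71 ± 0.34). Rps3a1 stood at 80.0, 49.1 and 85.5 CPM against 93.6 CPM, a log2 difference of -0.39 ± 0.39. In both the 18-month library was the highest. Rpsa, also known as the laminin receptor, stood at 188, 62.8 and 205 CPM against 122 CPM, with the 18-month value inside the 28-month range. Rps24, mutated in Diamond-Blackfan anaemia, stood at 121, 92.62 and 112 CPM against 92.58 CPM, with replicate 2 next to the 18-month value. With copies added, Rps24 stood at 303, 239.6 and 290.1 CPM against 295 CPM, and its log2 difference turned from 0.23 to -0.091. Rps27a, which is made as a fusion with ubiquitin, stood at 4.04, 4.29 and 4.82 CPM against 5.21 CPM, and its copies held over 95% of its counts in each library. The X-linked Rps4x stood at 278, 144 and 300 CPM against 275 CPM.

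Single-gene large-subunit units were evenly divided. Of 30 single-gene large-subunit members 16 were higher and 14 lower at 28 months (median log2 difference 0.05), and the 18-month value was under every 28-month value in 2 and above them in 6 (25.4% and 26.4% of all units). Rpl4, which lines the exit tunnel, stood at 1259, 504 and 1267 CPM at 28 months, against 738 CPM at 18 months. The 18-month value lay between replicate 2 and the others, as for many abundant members. Rpl11, which carries 5S rRNA into the ribosome and can bind Mdm2, stood at 16.6, 5.26 and 12.3 CPM against 20.4 CPM, a log2 difference of -0.84 ± 0.61. Rpl15 stood at 34.4, 22.4 and 30.9 CPM against 47.6 CPM (log2 difference -0.70 ± 0.32), and Rpl6 at 70.7, 36.9 and 73.7 CPM against 89.8 CPM (-0.57 ± 0.45). In these 3 genes, counted alone, the 18-month library was above every 28-month library. Copies held 86.0 to 92.6% of the counts of Rpl11. With them added it stood at 156, 71.4 and 139 CPM against 145 CPM, inside the 28-month range, with a log2 difference of -0.25. Counted without copies on the 3′ side of its bins, Rpl11 had a log2 difference of -0.25 ± 0.65. With copies added the log2 difference of Rpl6 was -0.33, and the 18-month value was still the highest. Rpl39, another protein of the exit tunnel, had 1052, 876 and 568 counts against 977, within the 28-month range, with a log2 difference of -0.40 ± 0.41. Its copies held 89.3 to 93.5% of the counts, and with them added the log2 difference was -0.018.

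Rpl10a, a protein of the mobile L1 stalk, had the lowest log2 estimate of all tested members, -2.78 ± 0.57. It stood at 2.25, 5.03 and 1.84 CPM at 28 months, against 20.9 CPM at 18 months. Its copies, led by the identical Rpl10a-ps1, held 93.3 to 98.8% of the counts at 28 months and 84.9% at 18 months. With copies added, Rpl10a stood at 179, 75.6 and 160 CPM against 139 CPM, and the log2 difference was -0.0051 ± 0.54. The 18-month excess lay in 2 neighbouring bins at the 3′ end, with 29, 148 and 18 counts against 667 and with 20, 126 and 7 counts against 664.

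The stalk genes followed the spread of the 28-month libraries. Rplp0 stood at 640, 199 and 652 CPM at 28 months, against 391 CPM at 18 months. Rplp1 stood at 74.1, 23.0 and 82.6 CPM against 41.3 CPM. Rplp2, joined to a small nucleolar RNA gene, stood at 6.03, 3.46 and 5.68 CPM against 4.32 CPM. In all 3 the 18-month value lay inside the 28-month range. The coefficients of variation among the 28-month libraries were 53.8% for Rplp1 and 52.0% for Rplp0, among the highest of members at 10 CPM or more, as were Rpsa (51.1%), Rpl11 (50.4%) and Rps18 (50.2%). In each of these 5, replicate 2 was the lowest of the 28-month libraries.

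Joined units carry small nucleolar RNA genes or a neighbouring gene in the same counts. Of the 18, 11 were higher in estimate at 28 months (median log2 difference 0.27). By subunit, 8 of 13 large-subunit units were higher (median 0.31) and 2 of 4 small-subunit units (median 0.22). The higher median of the small subunit, found in single-gene units, was thus not seen in joined units. Rpl13a, which also takes part in silencing translation after interferon, shares its unit with 3 Snord genes and a predicted gene. It stood at 457, 150 and 416 CPM at 28 months, against 116 CPM at 18 months (log2 difference 1.56 ± 0.74, and 1.03 with copies added). Rps3, at the mRNA entry of the small subunit, stood at 988, 455 and 895 CPM against 416 CPM. In both the 18-month value was the lowest. Rpl10, which joins the large subunit last, stood at 79.8, 64.2 and 58.4 CPM against 98.5 CPM, where the 18-month value was the highest.

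The paralogues, some made in few tissues and others broadly, were all higher in estimate at 28 months (5 of 5, median log2 difference 1.45). Over all units 54.4% were higher. In 3 of the 5 the 18-month value was below every 28-month value, where 25.4% of all units did so. Rpl22l1, whose mRNA is repressed by its relative Rpl22, stood at 31.7, 26.1 and 24.9 CPM at 28 months, against 7.02 CPM at 18 months. The 28-month values did not overlap the 18-month value, and the log2 difference was 1.97 ± 0.31 (edgeR unadjusted p = 0.00126, adjusted p = 0.859). It passed by DESeq2, as given above, and by edgeR without replicate 2 (adjusted p = 0.0151). On the 3′ side of its bins alone the log2 difference was 1.39 ± 0.31, and its copies had 0 counts in each library. Rps27l, a target of p53, stood at 179, 148 and 128 CPM against 55.6 CPM, again without overlap, with a log2 difference of 1.45 ± 0.35. Rpl39l, best known from testis, had 106, 27 and 81 counts at 28 months, against 7 at 18 months. Rpl3l, the muscle form of Rpl3, stood at 518, 256 and 492 CPM against 377 CPM, and Rpl36al at 49.7, 21.2 and 35.9 CPM against 33.0 CPM, both with the 18-month value inside the 28-month range. The log2 difference of Rpl36al turned from 0.11 to -0.11 with copies added.

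Rpl22 and Rpl22l1 are alike in protein but differ at many bases, shown here because reads are assigned by sequence. Coding bases 68 to 119 of Rpl22 (chr4:152325742-152334071, plus strand) are printed beside those of Rpl22l1 (chr3:28805436-28807424, plus strand), with the 12 differing bases in capitals.
Rpl22: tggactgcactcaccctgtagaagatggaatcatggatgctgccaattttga
Rpl22l1: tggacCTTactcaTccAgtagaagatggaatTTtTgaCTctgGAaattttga

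Paralogues were also set against their canonical partners within each library. The log2 ratio of Rpl22l1 to Rpl22 in CPM, which does not depend on library scaling, was -3.01, -2.41 and -3.21 at 28 months and -4.58 at 18 months, outside the 28-month range. Rpl22 itself stood at 254, 139 and 230 CPM against 168 CPM. For Rpl3l to Rpl3 the ratio was 5.01, 4.57 and 4.51 against 4.91, and the 18-month value lay inside the range. Adding the copies of Rpl3, which held 82.9 to 86.6% of its counts at 28 months and 88.3% at 18 months, brought this to 2.11, 2.02 and 1.91 against 1.82. For Rps27l to Rps27 the ratio was 8.54, 8.87 and 6.06 against 7.73. With Rps27rt and the other copies on the side of Rps27 it was 0.12, 0.89 and -0.14 against -1.04, and the 18-month value then lay below the others. Rpl36al to Rpl36a gave 3.09, 2.21 and 2.59 against 2.73. For Rpl39l and Rpl10l no ratio was taken, as they had few or no counts.

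The remaining symbols were close to even. The 6 tested retrogene symbols had log2 differences with a median of -0.04, and that of Rps27rt was 0.16 ± 0.47. Rps4l stood at 1.11, 0.769 and 1.04 CPM against 0.891 CPM. Rpl7l1, a nucleolar protein of large-subunit assembly, had a log2 difference of 0.04, and Rps19bp1, a partner of the deacetylase Sirt1, one of 0.03. Neither is a structural protein of the ribosome.

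Small-subunit counts made up less of the total relative to large-subunit counts at 18 months. Single-gene members together held 0.818, 0.549 and 0.788% of all counts at 28 months and 0.562% at 18 months, inside the 28-month range. With the joined units included, all 92 members held 0.995, 0.668 and 0.955% against 0.662%, just below replicate 2. Over single and joined units, the small subunit held 0.467, 0.312 and 0.451% against 0.274%, below the range, and the large subunit 0.344, 0.226 and 0.327% against 0.245%, within it. The ratio of small- to large-subunit counts was 1.36, 1.38 and 1.38 at 28 months, against 1.12 at 18 months. The 28-month libraries, which differed widely in their share of ribosomal protein counts, agreed closely in this ratio. It was 1.201, 1.23 and 1.24 against 1.03 without Rps14, and 1.19, 1.18 and 1.21 against 1.02 on the 3′ side of the bins. With copies added it was 1.03, 1.07 and 1.04 against 0.893, and in the copies alone it was 0.686, 0.763 and 0.694 against 0.719, where the 18-month value lay inside the range. The ratio was examined after other values had been seen, and with a single 18-month library an exact permutation test of it could not go below p = 0.25.

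**Figure D3:**
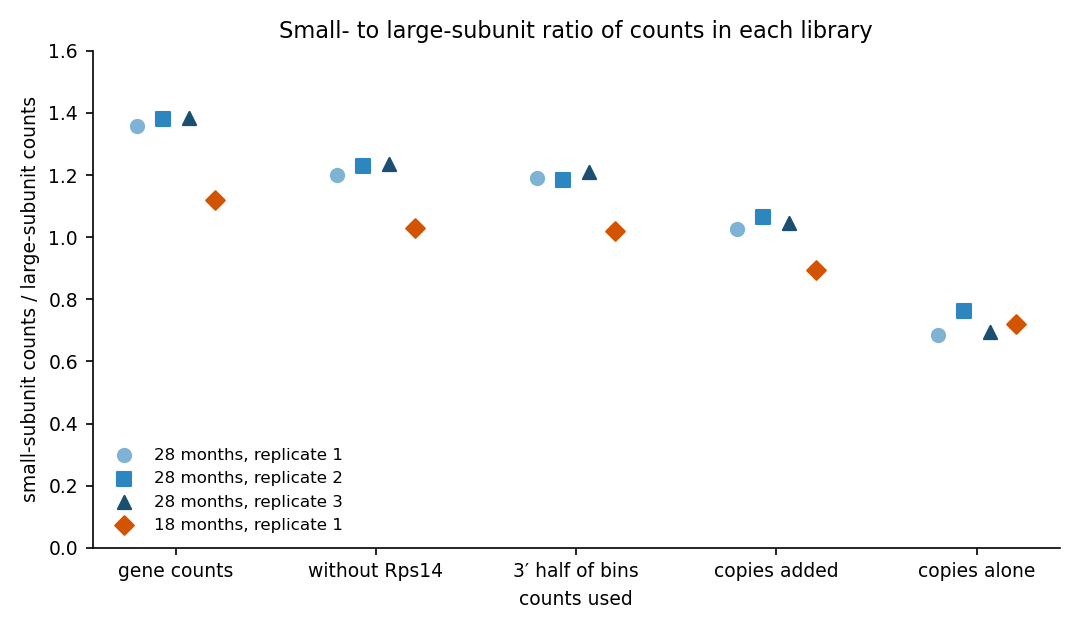
Ratio of small- to large-subunit counts in each library, from gene counts, without Rps14, from the bins on the 3′ side, with copies added and from copies alone. The 18-month library (diamond) is below the 28-month libraries in the first 4 sets, at 1.12 against 1.36 to 1.38 in gene counts, and between them in copies alone.

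The copies were also described on their own. Retrogene symbols among the members, such as Rps27rt, count here as copies and also in the shares of all counts given above for members. Matched copies held 0.600, 0.430 and 0.564% of all counts at 28 months and 0.576% at 18 months. Of 180 copies with a mean count of at least 10, 70 were higher in estimate at 28 months, and the median of their log2 differences was -0.13. In 33 of 69 families with counts on both sides (47.8%) the share in copies was higher at 18 months than in any 28-month library, and in 12 (17.4%) it was lower. Among families of other genes these shares were 53.9% and 19.8% of 560, so ribosomal protein genes were near the background. With copies added to their genes, the log2 differences of 84 families had a median of 0.07, beside 0.06 over all units of that fit. The same genes alone had 0.23.

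Exon usage was called different between the 28-month libraries and the single 18-month library in 8 of 64 testable ribosomal protein genes. This comparison addressed the splicing question of the study: whether a bin, a piece of exon between annotated boundaries, took another share of its gene at 28 than at 18 months. By edgeR's diffSpliceDGE with Simes p per gene, 8 of 64 members passed (12.5%), beside 3.54% of 11000 genes. They were Rps9 (adjusted p = 1.93e-08), Rpl7l1 (4.2e-06), Rpl22 (1.2e-05), Rpl22l1 (2.9e-05), Rpl3l (0.00566), Rps4x (0.0132), Rpl26 (0.0389) and Rps14 (0.0450). Of 508 member bins 9 passed on their own (1.77%), beside 0.366% of all bins, with 4 higher at 28 months (0.208% of all bins) and 5 lower (0.158%). Without replicate 2, 20 members passed (31.3%), near the 30.5% of all genes, with 46 bins, beside 7.23% of all bins. Without replicate 1, 4 members and 5 bins passed, beside 2.13% of all genes and 0.224% of all bins. Without replicate 3, also 4 members and 5 bins passed, beside 1.55% of all genes and 0.169% of all bins. By limma voom with diffSplice 7 members passed (10.9%), under the 15.7% of all genes, with 14 bins (2.76%), beside 2.39% of all bins. With a mean of at least 30 counts per bin, 4 members (6.67%) and 6 bins (1.48%) passed, beside 2.58% of all genes and 0.282% of all bins. Without first and last bins, 3 members (4.76%) and 5 bins (1.15%) passed, beside 2.62% of all genes and 0.295% of all bins. The F-test over a gene's bins called 11 members (17.2%), under the 30.7% of all genes.

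Bins lower at 28 months lay on the intron side of annotated exons in Rps9, Rpl22 and Rps4x. In Rps9, bin 15 (chr7:3704769-3704877, plus strand, annotated in retained-intron transcripts) had 2, 4 and 0 counts at 28 months, against 200 at 18 months. It made up 0.838% of the gene's counts at 18 months (exact 95% interval 0.726 to 0.962%), and the log2 difference in use was -5.03 (adjusted p = 8.86e-09). The exon just before it had 7283, 4250 and 6355 counts against 3354, and the next 552 bases of the same intron had 0, 9 and 7 against 2. The 18-month counts thus lay in the part of the intron that the annotated transcript Rps9-206 covers. In Rpl22, bin 15 (chr4:152330129-152330275, plus strand, in the processed transcript Rpl22-203) had 0, 1 and 0 counts at 28 months, against 112 at 18 months (adjusted p = 8.38e-06). The exon piece just before it had 2581, 1932 and 1949 counts against 1257. Both bins reached the mean of 10 counts needed for testing only through the 18-month library. A difference in this direction was thus needed for them to be tested at all. Both bins open with GT, the first bases of a standard intron. The sequences show the last 30 bases of the exon in lower case and the whole bin in capitals.
Rps9 bin 15: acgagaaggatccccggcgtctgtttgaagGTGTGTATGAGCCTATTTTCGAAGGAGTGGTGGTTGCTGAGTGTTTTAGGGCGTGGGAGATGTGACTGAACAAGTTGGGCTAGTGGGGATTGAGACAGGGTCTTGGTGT
Rpl22 bin 15: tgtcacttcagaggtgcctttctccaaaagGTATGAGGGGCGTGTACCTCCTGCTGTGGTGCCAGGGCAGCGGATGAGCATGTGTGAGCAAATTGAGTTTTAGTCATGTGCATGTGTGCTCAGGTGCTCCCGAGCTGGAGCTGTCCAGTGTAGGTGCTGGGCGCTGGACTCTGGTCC

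Further bins of this kind were smaller. In Rps9, bins 9 and 10 are 5 and 2 bases long and lie just before bin 11, which had 4801, 2802 and 4145 counts against 2615. Bin 10 (chr7:3704325-3704326) had 23, 15 and 10 counts at 28 months, against 195 at 18 months (adjusted p = 2.39e-05), and bin 9 had 23, 16 and 11 against 104 (adjusted p = 0.0100). In Rps4x, bin 7 (chrX:102187627-102187821, minus strand, retained intron) had 1, 1 and 2 counts against 62 (adjusted p = 0.0143). Bin 7 of Rps4x and bin 9 of Rps9 did not pass without replicate 1 or without replicate 3, and the former not by limma voom. Bin 7 of Rps4x, too, reached the mean of 10 counts needed for testing only through the 18-month library. Because the 18-month group is 1 library, a sequence present in that library alone and a difference of age cannot be told apart.

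Bins higher at 28 months lay at or next to the 5′ end of their gene. Those named here had under 10 counts at 18 months and were admitted to the test by the 28-month libraries. With first and last bins left out, every member bin that passed was lower at 28 months. In Rpl22l1 the 5′-most bin had 419, 509 and 313 counts at 28 months, against 1 at 18 months, or 20.2% ± 0.53 (SD, n = 3) of the gene against 0.219%. The log2 difference in use was 4.44 (adjusted p = 6.21e-05), and the following bins took 24.8, 23.1 and 31.9% at 28 months and 7.88, 35.7 and 56.2% at 18 months. In Rpl7l1 the 5′-most bin had 108, 193 and 76 counts against 2 (adjusted p = 5.67e-06). In Rpl3l the 5′-most bin (chr17:24727820-24727886, plus strand) had 231, 102 and 234 counts against 4 (adjusted p = 0.00475), and that call was lost without replicate 1, without replicate 3 and by limma voom. In Rpl26, bin 2 (chr11:68901610-68901624, plus strand, 15 bases) had 152, 63 and 88 counts against 7 (adjusted p = 0.0368), lost in 5 of the alternatives run.

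Rps14 passed as a gene without any bin passing. Its first 3 tested bins from the 5′ end had 2163, 1119 and 1596 counts against 30, then 5008, 3457 and 4165 against 29, then 5020, 3464 and 4464 against 282. The first 2 of these bins were nearly empty at 18 months, although the gene had 14110 counts there. The fourth tested bin went the other way, with 368, 292 and 17 counts at 28 months, against 911 at 18 months (adjusted p = 0.0544). In Rps21, also high in estimate at 28 months, the 5′ bins kept close to their share. The first abundant bin of Rps21 took 11.4% ± 0.67 (SD, n = 3) of the gene at 28 months and 10.6% at 18 months.

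**Figure D4:**
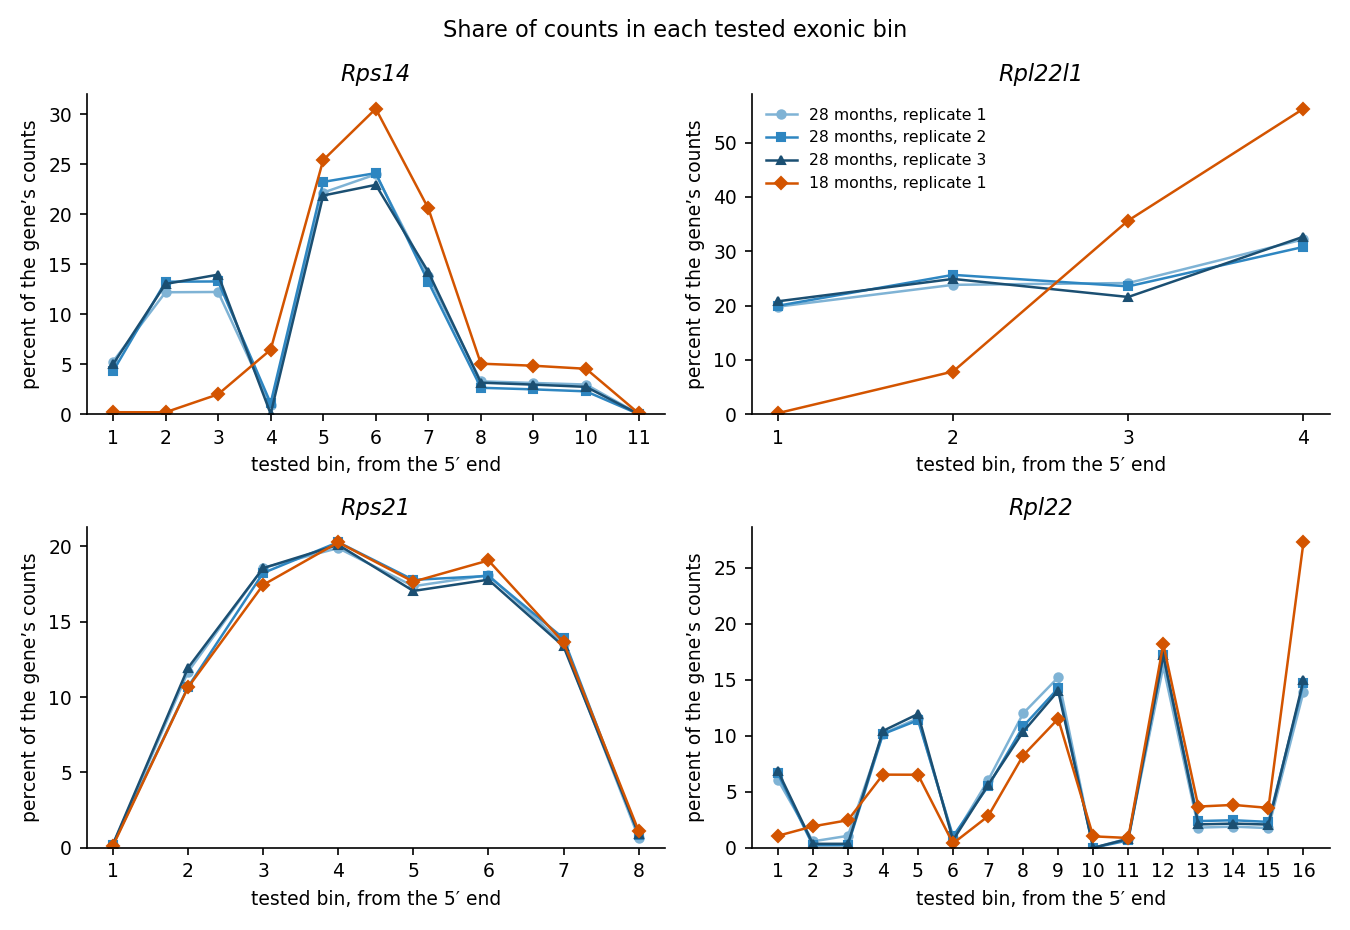
Percent of a gene's tested counts in each tested bin, ordered from the 5′ end, for Rps14, Rpl22l1, Rps21 and Rpl22 in each library. The 18-month line (diamonds) starts near 0 in Rps14 and Rpl22l1, where the 28-month libraries hold 20.2% of Rpl22l1 in the first bin, and runs close to the others in Rps21.

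A lower 5′ share at 18 months was common to most genes of these libraries. The share of counts on the 5′ side, the first tested bins up to the midpoint of their order, was below all 28-month values in 39 of 64 members (60.9%), beside 76.5% of 10987 genes. It was above them in 8 members (12.5%), beside 5.62%. The median 5′ share of members was 38.2, 36.3 and 37.6% at 28 months and 32.8% at 18 months, and that of other genes 31.0, 32.7 and 31.5% against 23.9%. The 5′-most bin alone was below all 28-month values in 36 of 64 members (56.3%), beside 63.3%. Coverage along the transcript thus differed between the libraries of the 2 ages in most genes, and its part in the exon usage calls and in the gene differences was not tested. On the 3′ side of the bins alone, the log2 differences of 70 single-gene members had a median of 0.27, beside 0.04 over all units.

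Among members the drop was uneven. The 5′ share of Rpl22l1 was 45.0% ± 1.18 (SD, n = 3) at 28 months and 8.10% at 18 months, that of Rps14 54.0% ± 1.21 and 34.3%, and that of Rpl22 47.0% ± 1.22 and 29.99%. Rps6 went from 47.3% to 22.7%. Rpl10a had 35.2% ± 15.1 and 0.813%. Rpl39l, with 2 tested bins, had 39.3% ± 10.4 at 28 months and 0% at 18 months. That 0% is imprecise, as the whole gene had only 7 counts in the 18-month library. Rpl11 and Rpl35 went the other way, from 65.4 to 75.1% and from 37.0 to 46.1%.

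**Figure D5:**
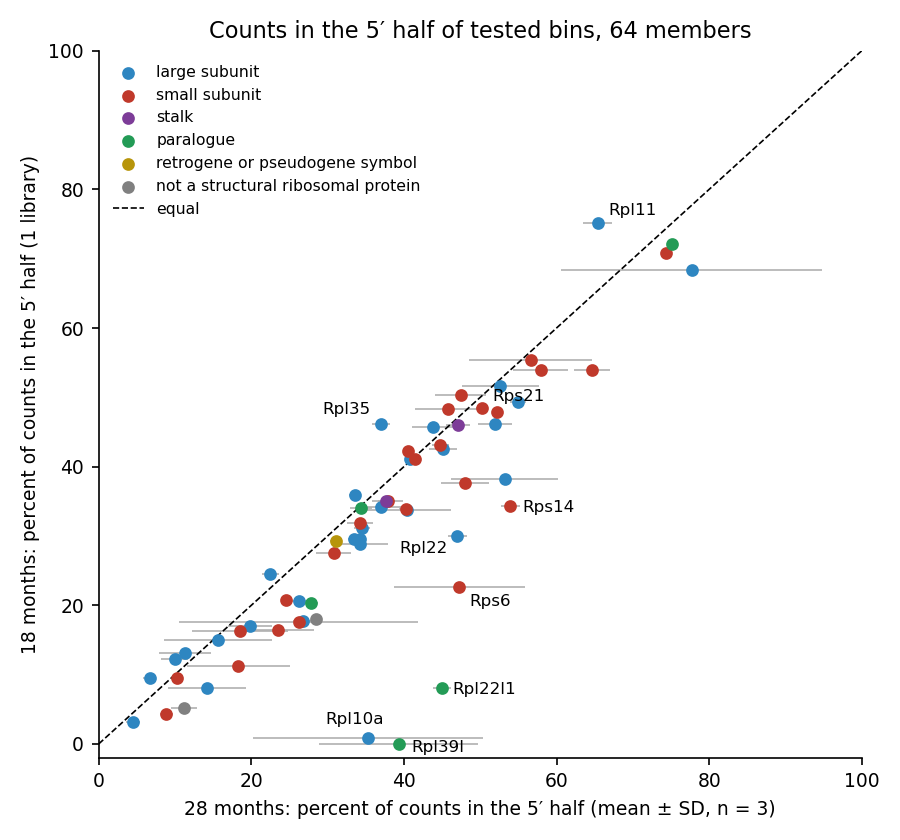
Percent of counts in the tested bins on the 5′ side for 64 members, at 28 months (horizontal, mean ± SD, n = 3) and at 18 months (vertical, 1 library), with equality dashed. Rpl22l1, Rpl10a and Rpl39l lie far below the line, at 8.10, 0.813 and 0% at 18 months, and Rpl11 and Rpl35 above it. Rpl39l had only 7 counts in the 18-month library.

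Genes that act with the ribosome were described from 7 lists, and by edgeR or DESeq2 0 genes of any of these lists had an adjusted p under 0.05, while by edgeR 4 of 119 had an unadjusted one (4.9% of all units). Without replicate 2, 23 passed by edgeR (11.9% of all units). The 3 companion ribosomal proteins outside the symbol rule were all higher in estimate at 28 months (median log2 difference 0.63). Rack1, a scaffold on the small subunit, stood at 1108, 435 and 1060 CPM at 28 months, against 562 CPM at 18 months, and Fau, which encodes Rps30, at 5.17, 0.953 and 4.16 CPM against 1.198 CPM, both inside the 28-month range. Of 13 elongation and other TOP genes 6 were higher, with a median of -0.21. Hnrnpa1, an RNA-binding protein with a TOP mRNA, stood at 9.13, 9.36 and 10.7 CPM against 15.2 CPM. Btf3, of the complex that meets the new peptide, had -0.67 and Eef1g, an elongation factor subunit, -0.57, and in these 3 the 18-month value was the highest. Of 28 initiation factors 16 were higher, with a median of 0.13.

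Of 32 tested ribosome assembly genes 25 were higher at 28 months in estimate (median log2 difference 0.27), where 54.4% of all units were higher. In 16 the 18-month value was below all 28-month values and in 4 above them (25.4% and 26.4% of all units). Fbl, the methyltransferase of ribosomal RNA, stood at 1.99, 1.72 and 1.52 CPM against 0.522 CPM, a log2 difference of 1.74 ± 0.56, and Nvl, an assembly ATPase, at 15.3, 18.4 and 16.2 CPM against 9.47 CPM. Of 15 genes of ribosomal RNA transcription 9 were higher, with a median of 0.12, and Taf1b, of the selectivity factor of RNA polymerase I, had 0.75 ± 0.30. Of 9 tested small nucleolar RNA host genes 8 were higher, with a median of 0.70. Snhg6 stood at 11.4, 12.7 and 12.9 CPM against 6.22 CPM. Of 19 mTORC1 and TOP regulators 12 were higher, with a median of 0.23. Deptor, an inhibitor of mTOR, went against them, at 80.9, 78.9 and 86.6 CPM against 159 CPM, a log2 difference of -0.96 ± 0.25 (edgeR unadjusted p = 0.0122, adjusted p = 0.859).

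Summed markers of other cell types were uneven over the libraries too. Macrophage markers (6 of 6 higher in estimate at 28 months) summed to 85.1 to 145 CPM at 28 months, against 52.4 CPM at 18 months. Schwann cell markers (0 of 6 higher) summed to 93.9 to 179 CPM and to 314 CPM. Adipocyte markers (3 of 3 higher) summed to 653 to 978 CPM and to 485 CPM. Fibroblast and collagen markers (4 of 6 higher) were highest in replicate 2, at 2667 CPM, where the other 28-month libraries had 990 and 1552 CPM and the 18-month library 1463 CPM. Red cell markers (4 of 4 higher) ranged from 141 to 3721 CPM at 28 months, with 174 CPM at 18 months. The part of these cells in the ribosomal protein values was not tested.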

How the data were processed

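The values deposited for each of the 4 libraries are raw counts of reads over exonic bins, not normalized. Per the submitters' processing notes, bcl2fastq 1.8.3, TopHat2 2.0.4 and the build GRCm38 were used. Counter, annotation release and strandedness are "not given in the sources used here", so reads of overlapping antisense genes cannot be told apart. The form of the bins is that in which a fragment may count in each bin it crosses. Special entries naming no gene (3.43, 4.56, 3.36 and 5.20% of entries in 28-month replicates 1, 2 and 3 and 18 months) were left out. Totals were 76163175, 75992582, 67279205 and 65780464 counts, with TMM factors of 0.877, 1.28, 0.897 and 0.990.

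Bins were summed per gene and tested with edgeR's quasi-likelihood test (mean count at least 10, all 4 libraries, biological coefficient of variation 0.378, 2 residual degrees of freedom, all from 28 months). Exon usage used diffSpliceDGE on bins with a mean of at least 10, joined units left out. Calls used a Benjamini-Hochberg adjusted p under 0.05 over the whole table. Symbols were found for 39170 units. Positions came from GENCODE M21, and bins were placed only where their number per gene matched it (47 of 92 members). Copies are pseudogenes and retrogenes whose transcript matched a coding transcript by BLAST over at least 100 bases. Printed sequences are GENCODE M21 transcripts. Length per kb is that of the basic transcript with the longest coding sequence. Counts were simulated with the same coefficient of variation, 0.378, for all genes or bins. In them, bin changes of log2 1, 2, 3 and 4 were recovered in 0, 4, 38 and 52%, and gene changes in 0, 20, 72 and 98%.

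Named genes were the paralogue pairs, stalk genes and a few others by name, the 6 largest estimates each way at 10 CPM or more, the 5 highest in CPM, called genes, the 8 smallest exon usage p and the 6 most variable at 28 months. Rps27rt, Rpl37, Rpl37rt, Rps13, Rps16, Rps29, Rpl28, Rpl13a and Rpl35 were named after their values were seen. A few genes that the rule would name are not reported here. The members and lists were chosen with earlier results of these data known. Alternatives were size factors, other filters, DESeq2, limma voom, the gene F-test, end bins left out and each 28-month library left out. The 3′ side of bins and the added copies were chosen after seeing the data. Versions: edgeR 4.0.16 and DESeq2 1.42.0 in R 4.3.3, with limma 3.58.1, BLAST 2.17.0 and Python 3.11.15.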

Additional observations from a re-analysis of the deposited data

How the results depend on the processing

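Of 13 members' log2 differences, 117 values under alternatives gave 107 on the same side of the threshold, 9 newly past it (7 without 28-month replicate 2, 2 by DESeq2) and 1 with the sign turned, Rps7 at -0.045 with copies added. Of 49 values for the 9 called bins, 36 kept the call, 13 lost it (in Rpl3l bin 1, Rps9 bin 9, Rps4x bin 7 and Rpl26 bin 2) and none changed sign. DESeq2 called 2 members and 31 units in all. Leaving out each 28-month library gave 0 to 24 single-gene members called, 0 to 1799 units, 0 to 23 companion genes, 4 to 20 members and 171 to 3250 genes for exon usage, and 5 to 46 member bins, the highest each time without replicate 2. A bin mean of at least 30 gave 4 members and 237 genes. Leaving out first and last bins gave 3 members and 5 bins, fewer bins being tested. Limma voom gave 1724 genes and 14 bins, and the gene F-test 3375 genes. The difference in log2 ratio of Rpl3l to Rpl3, -0.22 from gene counts, was 0.19 with copies added to Rpl3. For the alternatives whose construction does not show it, the cause was not tested. The median log2 difference of single-gene members moved from 0.03 without replicate 1 to 0.41 without replicate 2. No paired analysis was possible because the 18-month group has 1 library and no number shared between ages marks a common animal. Depth limits Rps27, Rps29, Rps13 and Rpl39l, whose own counts are few.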
